A study of Sus scrofa with 15 samples.

Results

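Landrace backfat was followed over months 1 to 5 on 5 of the 15 two-colour arrays of the study, and these 5 arrays are described here. They were chosen by their labels, which name Landrace on both channels, and they join the 5 months in a closed loop. Each month after the first was hybridised with the month before it, and month 1 with month 5, so every month is on 2 of the 5 arrays. The study's title sets a fat type pig beside a lean type, and Landrace is known as a lean breed and Taihu as a fat one. The other 10 arrays hold a Taihu loop of the same form (5 arrays) and Landrace against Taihu at each month (5 arrays, Landrace in Cy3). No treatment, genotype, sex or diet is given in the labels, and months are taken as the labels give them. The labels do not say whether the RNA of a month came from 1 animal or several, so each breed and month is taken as 1 RNA sample.

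Backfat is the subcutaneous fat laid down along the back of the pig. After birth it grows through the formation of new fat cells from precursors and, increasingly, through the filling of existing fat cells with triglyceride made in the cell or taken up from blood lipoproteins. Lean breeds are selected for a thinner layer. The tissue also holds vessels, connective tissue, immune cells and nerve, and in RNA of whole tissue fewer cells of a type and less RNA per cell cannot be told apart.

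Each array carries 656 spots in 8 blocks of 82 positions, and leaving out the first 12 positions of each block left 140 distinct positions with 4 printed copies each. All 140 are described, and 138 with a value on every array were tested. The files give position codes and no gene names. None of the 164 codes (0 of 164) was found in the reference tables used here, so positions carry their codes (block row, row, column), no gene can be named, no sequence is shown, and the fat cell, stroma, muscle and blood markers could not be checked against the labelled tissue. On the 5 Landrace loop arrays the median signal was 5.94 to 11.95 times the background in Cy3 and 3.53 to 8.30 times in Cy5. At 139 of 140 positions the signal was at least 2 background SDs above background in all 10 channel readings. One spot was marked by the image software and left out, and 69 of 2800 spot readings were at the scanner's ceiling, at 12 positions.

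Levels are log2 values relative to month 1 of the same position, centred on the median position of each array, so that 0 means no change relative to the median position and not a constant amount of RNA. The 5 loop arrays give the 4 differences between months and a dye term with nothing left over, so their levels carry no error of their own. The SDs given with them are over the 4 printed copies, which are spots of one hybridisation and not animals. The other 10 arrays give the same 4 Landrace differences independently of those hybridisations. Tests come from limma over all 15 arrays, with 5 residual degrees of freedom, and measure only how far arrays disagree. Throughout, adjusted p is limma's with Benjamini-Hochberg adjustment over the 138 positions, two-sided, with a threshold of 0.05. Positions named for a comparison had no spot at the ceiling on a Landrace loop array and one sign in both sets of arrays. Among these, they have the largest fitted rises and falls past the threshold. Larger falls at ceiling positions are thus not named, and a shared direction in both sets was fixed by the choice. Below, no ceiling spot means none on the 5 Landrace loop arrays. Over all 15 arrays, which the fit uses, 19 positions had a ceiling spot.

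The first question was how far and in what order backfat moved away from month 1. The expression pattern moved farther from month 1 at each later month, and the first step was the longest. The root mean square log2 difference from month 1 over the 140 positions was 0.68 ± 0.03 for month 2, 0.83 ± 0.02 for month 3, 0.94 ± 0.06 for month 4 and 1.025 ± 0.05 for month 5 (SD over 4 copies). The single steps measured 0.68 ± 0.03 for month 2 over 1, 0.42 ± 0.03 for month 3 over 2, 0.40 ± 0.06 for month 4 over 3 and 0.35 ± 0.06 for month 5 over 4. The first step thus exceeded each later one by more than the spread of the copies, while the last 3 steps differed from their neighbours by less than that spread.

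**Figure D1:**
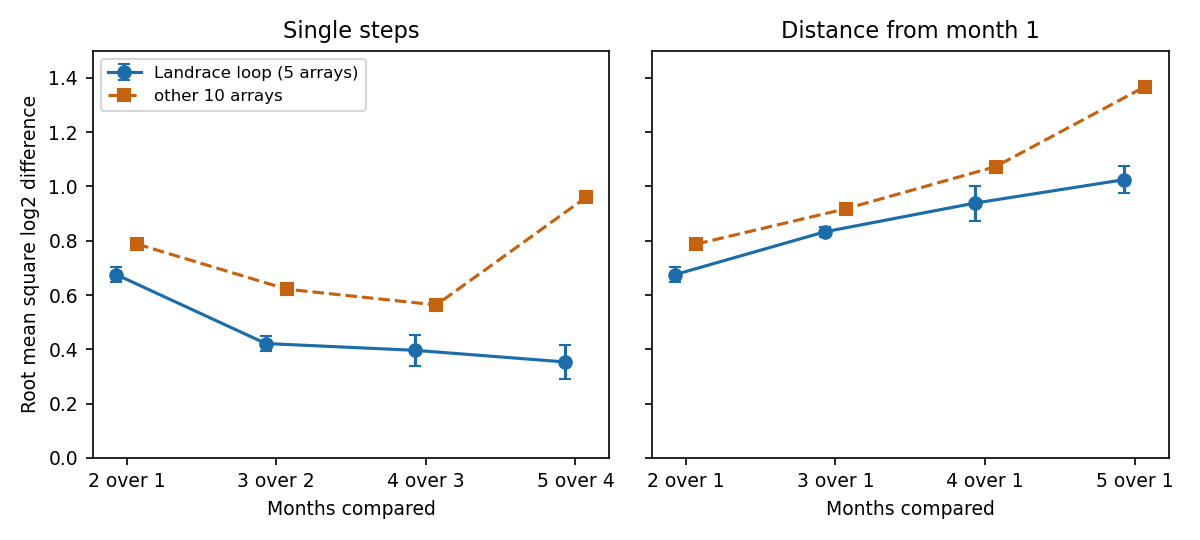
Root mean square log2 difference over positions for single steps (left) and for each month over month 1 (right). Circles are the 5 Landrace loop arrays with the SD over 4 printed copies and squares the Landrace levels of the other 10 arrays. In the loop the first step is the longest at 0.68, and in the other 10 arrays the last step, at 0.96, exceeds it.

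The other 10 arrays gave the same growing distance from month 1 (0.79, 0.92, 1.07 and 1.37 at months 2 to 5) and another order of steps. Their steps measured 0.79, 0.62, 0.56 and 0.96, so that there the step to month 5 was longer than the step to month 2. The sets of arrays were closest on the first step. Across 138 positions the month 2 over 1 changes correlated with r = 0.93 and had the same sign at 120 positions, with a root mean square disagreement of 0.29. For month 5 over 4 they correlated with r = 0.69, with the same sign at 100 positions and a disagreement of 0.76, which is larger than the step itself in the loop. The r values are descriptions across positions of the same arrays, which are not independent replicates. The middle steps had r = 0.73 and 98 positions of one sign for month 3 over 2, and r = 0.70 and 97 positions for month 4 over 3. The disagreement was 0.44 and 0.40 for these steps, against loop steps of 0.42 and 0.40. The decline in step size up to month 5 therefore describes the 5 loop hybridisations.

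**Figure D2:**
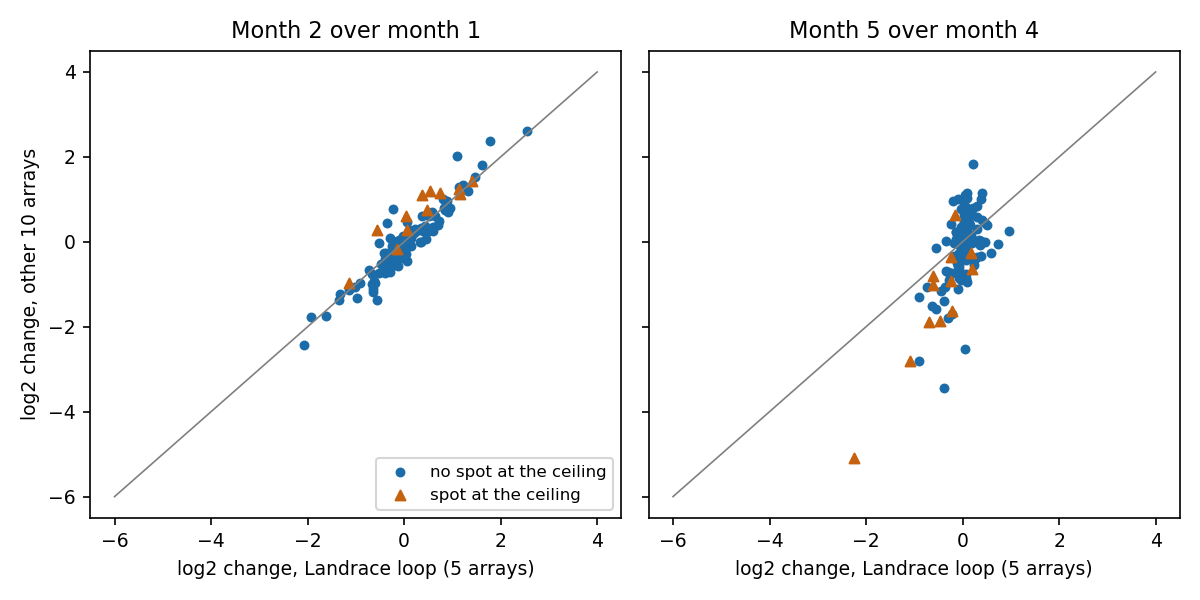
Log2 change of each position in the 5 Landrace loop arrays (horizontal axis) against the same change from the other 10 arrays (vertical axis) for month 2 over 1 (left) and month 5 over 4 (right), with triangles for positions with a spot at the ceiling and the line of equal values in grey. Points follow the line for the first step (r = 0.93) and spread along the vertical axis for the last (r = 0.69).

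Over all 4 differences together, 72 of 138 positions (52.2%) varied between the Landrace months (moderated F-test, limma). Without the dye term 44 varied, and leaving out each of the 15 arrays in turn gave 46 to 91. The 46 came from leaving out the Landrace array of months 1 and 5, the only loop array that spans them.

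The order of the months along the main axis of variation was the order of age. The first principal component of the 5 levels held 68.0% of the variance, with month scores of -0.60, -0.21, 0.09, 0.30 and 0.41 at months 1 to 5. The second held 23.4%, with scores of -0.24, 0.29, 0.21, -0.03 and -0.22, so it set months 2 and 3 apart from months 1 and 5. The 12 positions with the largest variance held 54.8% of it, and 5 of these 12 had a spot at the ceiling. Without the 12 ceiling positions the first component held 70.2%, with scores of -0.60, -0.06, 0.15, 0.26 and 0.26, so months 4 and 5 were then level and month 2 lay farther from month 1.

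**Figure D3:**
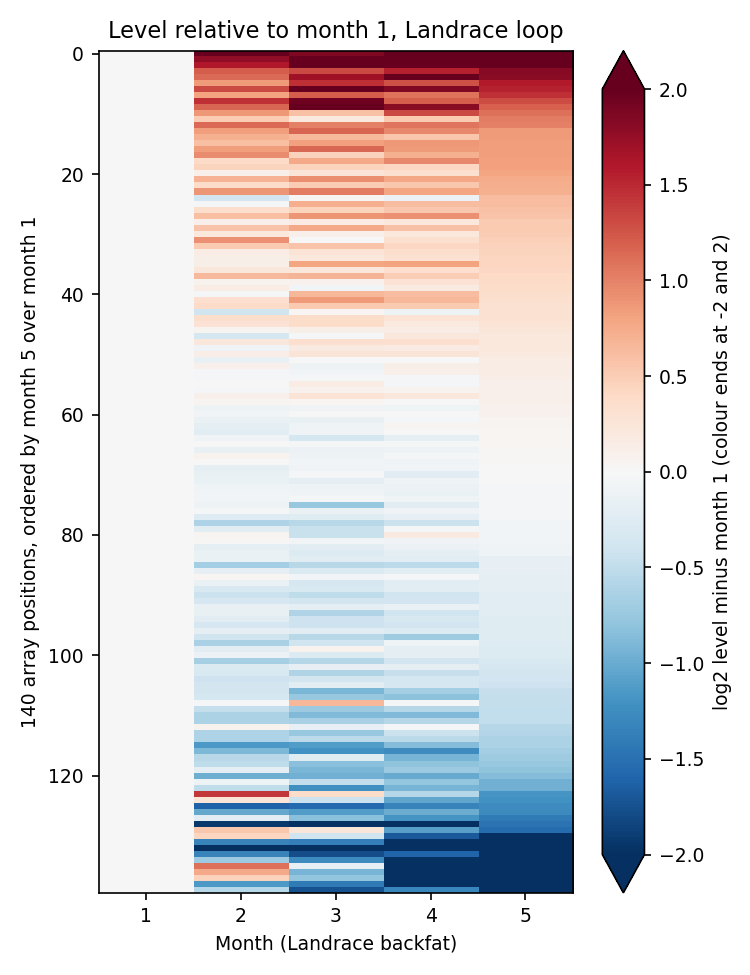
Levels relative to month 1 (log2, colour) of the 140 positions (rows, ordered by the month 5 level) at months 1 to 5 (columns) in the 5 Landrace loop arrays, with colours ending at -2 and 2. Many rows are coloured from month 2 on, where the root mean square difference is 0.68, and some rows near the bottom are red at month 2 and blue at month 5.

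Between month 1 and month 2, 26 positions rose and 25 fell, 51 of 138 (37.0%), and 60 had an unadjusted p under 0.05. The largest rise was at Sr02R04C06. On the array of these months its signal minus background was 23831 at month 2 and 4823 at month 1. Signals given here and below are of this kind, neither centred nor corrected for dye, so their ratios differ from the fitted changes. Its loop levels were 2.55, 1.87, 2.39 and 2.48 at months 2 to 5, so it was high by month 2 and stayed between 1.87 and 2.55 above month 1. The fitted rise at month 2 was 2.58 (6-fold, SE 0.23, adjusted p = 8.38e-05).

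Sr01R04C06 had a signal of 2995 at month 2 and 1108 at month 1 on the same array. Its loop levels of 1.77, 2.58, 3.00 and 2.26 at months 2 to 5 climbed to month 4 and were lower at month 5. The fitted rise at month 2 was 1.91 (3.76-fold, SE 0.15, adjusted p = 7.11e-05).

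Of the falls named, Sr02R06C04 was the largest, with a signal of 4269 at month 2 and 27305 at month 1. Its loop levels were -2.07, -2.23, -2.06 and -2.45 at months 2 to 5, a single drop with little movement afterwards. The other 10 arrays gave -2.43, -1.32, -1.27 and -4.70 at those months, so the sets share the drop and part later. The fitted fall of 3.95-fold (log2 -1.98, SE 0.52, adjusted p = 0.0165) did not pass the threshold without any 1 of 4 arrays. These were the Landrace array of months 1 and 2 (adjusted p = 0.223), the breed arrays of months 1 and 2 (0.0525 and 0.0568) and the Taihu array of months 1 and 2 (0.0558). The call was lost also without a dye term (adjusted p = 0.0608).

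Sr01R05C06 read 6292 at month 2 and 30689 at month 1. Its loop levels were -1.94, -1.97, -2.43 and -1.48, so it too dropped at once, was lowest at month 4 and partly returned at month 5. The fitted fall at month 2 was 3.65-fold (log2 -1.87, SE 0.18, adjusted p = 0.000107). The count of 51 was 17 without the Landrace array of months 1 and 2, and 37 to 65 without each of the other 14.

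**Figure D4:**
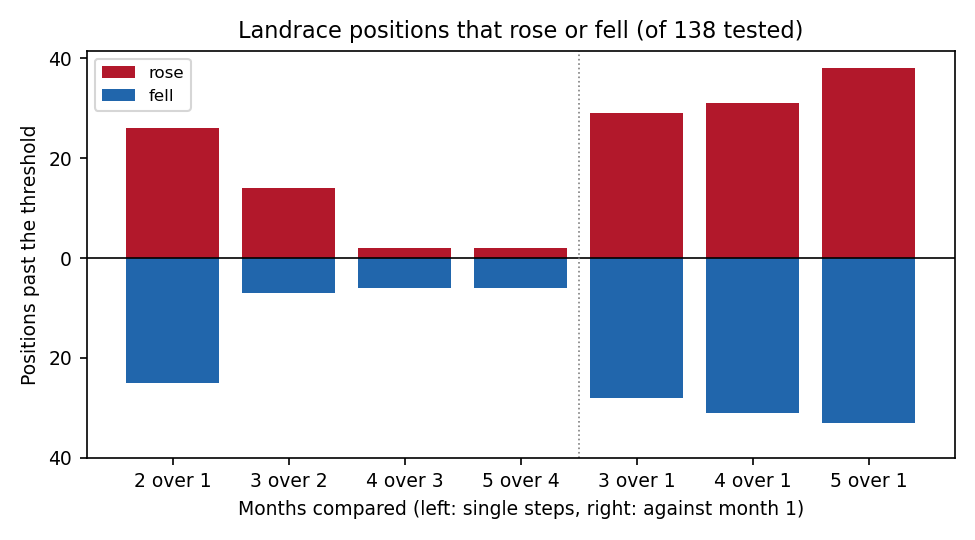
Number of the 138 tested positions that rose (red, upwards) or fell (blue, downwards) past the threshold, for the 4 single steps (left of the dotted line) and for months 3, 4 and 5 over month 1 (right). The first step has 26 rises and 25 falls, the last 2 steps have 2 rises and 6 falls each, and month 5 over month 1 has 38 rises and 33 falls.

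Between month 2 and month 3, 14 positions rose and 7 fell, 21 of 138 (15.2%), and 40 had an unadjusted p under 0.05. Sr01R04C03 rose most. Its signal was 6617 at month 3 and 2388 at month 2 on their shared array. With loop levels of 1.61, 3.07, 3.16 and 2.26 at months 2 to 5, it rose in both of the first steps, held at month 4 and was lower at month 5. The fitted rise at month 3 over month 2 was 1.43 (2.70-fold, SE 0.12, adjusted p = 0.000238), and this call held without each of the 15 arrays. Sr01R04C06, already high at month 2, rose further, with a signal of 4819 at month 3 and 2657 at month 2. The fitted change was 0.87 (1.82-fold, SE 0.15, adjusted p = 0.00720, and 0.0766 without the Landrace array of months 2 and 3).

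Among positions past the threshold with no ceiling spot, Sr02R06C02 fell most at this step, after rising at the one before. Its signal was 1007 at month 3 and 2154 at month 2, and its loop levels were 0.92, 0.01, 0.32 and 0.47 at months 2 to 5, so month 3 was back at the month 1 level. The fitted fall was 1.88-fold (log2 -0.91, SE 0.12, adjusted p = 0.00290, and 0.0510 without the Landrace array of months 2 and 3). Without a dye term the adjusted p was 0.0581.

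Sr01R03C04 read 1189 at month 3 and 1789 at month 2. Its loop levels of -0.51, -1.22, -0.94 and -0.96 reached their lowest at month 3. The fitted fall was 1.73-fold (log2 -0.79, SE 0.16, adjusted p = 0.0132), and the call was lost without the Landrace array of months 2 and 3 (adjusted p = 0.127) or the breed array of month 2 (0.0522), and without a dye term (0.107).

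The split of 14 rises and 7 falls depended on the scaling. It was 15 and 15 with normexp and loess, 14 and 12 with normexp and median centring, and 10 and 8 when arrays were centred on the first 12 positions. The count of 21 was 8 without a dye term. It was 4 without the Landrace array of months 2 and 3, 13 without that of months 3 and 4 and 37 without that of months 4 and 5. It was 10 without the breed array of month 2, 12 without the Taihu array of months 1 and 5 and 39 without that of months 4 and 5.

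Between month 3 and month 4, 2 positions rose and 6 fell, 8 of 138 (5.80%), and 29 had an unadjusted p under 0.05. Sr02R08C02 and Sr02R08C08 were the 2 that rose. Sr02R08C02 had a signal of 2208 at month 4 and 1278 at month 3, with loop levels of 0.86, 0.59, 1.32 and 1.10 at months 2 to 5. Its fitted rise was 0.79 (1.73-fold, SE 0.14, adjusted p = 0.0249). Sr02R08C08 had a signal of 3149 at month 4 and 1745 at month 3, and its loop levels of -0.10, -0.75, -0.20 and -0.03 show a dip at month 3 only. Its fitted rise was 0.65 (1.57-fold, SE 0.14, adjusted p = 0.0281).

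Of the falls at this step with no ceiling spot, Sr01R06C03 read 1080 at month 4 and 2558 at month 3. Its loop levels were 0.43, -0.39, -1.68 and -2.24 at months 2 to 5, so it went down in each step after month 2. The fitted fall was 2.40-fold (log2 -1.26, SE 0.27, adjusted p = 0.0281). The loop value of that step, -1.29, had a copy SD of 0.54. Sr01R08C02 read 4134 at month 4 and 6484 at month 3, and its levels of 1.47, 1.95, 1.20 and 1.30 were highest at month 3. The fitted fall was 1.65-fold (log2 -0.72, SE 0.14, adjusted p = 0.0249).

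Each of these 4 calls was lost when any 1 of 10 arrays was left out, namely the Landrace arrays other than that of months 4 and 5, the breed arrays of months 1 to 3, and the Taihu arrays of months 1 and 2, 3 and 4, and 1 and 5. All 4 were lost also without background subtraction or without a dye term. Sr02R08C08 was lost without the breed array of month 4 or when centred on the first 12 positions as well, and Sr01R06C03 with the median of the copies. Their adjusted p without the Landrace array of months 3 and 4 was 0.186 to 0.462. The count of 8 was 0 without a dye term, 17 with normexp and loess (6 rises and 11 falls) and 26 with array weights (14 rises and 12 falls). Leaving out single arrays gave 0 to 21, with 21 without either array of months 4 and 5 (Landrace or Taihu) and 10 without the breed array of month 5. It was 9 without the Taihu array of months 2 and 3 and 0 to 5 without each of the others.

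Between month 4 and month 5, again 2 positions rose and 6 fell, 8 of 138 (5.80%), and 28 had an unadjusted p under 0.05. Both falls named here, the largest past the threshold with no ceiling spot, were returns from a high level. Sr02R06C04, already low, had a larger fitted fall that missed the threshold (log2 -1.08, adjusted p = 0.303). Sr01R04C03 read 3885 at month 5 and 8359 at month 4, and its fitted fall was 1.97-fold (log2 -0.98, SE 0.12, adjusted p = 0.00435). This call held without each of the 15 arrays and was lost without a dye term (adjusted p = 0.135). Sr01R04C06 read 3585 at month 5 and 6718 at month 4, and its fitted fall was 1.80-fold (log2 -0.84, SE 0.15, adjusted p = 0.0289).

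The 2 rises were at Sr01R05C06 and Sr01R04C08. Sr01R05C06 read 5297 at month 5 and 2807 at month 4. Its loop rise was 0.95 and that of the other 10 arrays 0.26, with a fitted rise of 0.80 (1.74-fold, SE 0.18, adjusted p = 0.0390). Sr01R04C08 read 8536 at month 5 and 5430 at month 4, and its loop levels of 0.10, 0.26, 0.33 and 0.79 at months 2 to 5 rose in every step and most in the last. Its fitted rise at this step was 0.47 (1.38-fold, SE 0.11, adjusted p = 0.0390).

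The call at Sr01R04C08 held only without the Taihu array of months 4 and 5, and that at Sr01R05C06 only without this array or the breed array of month 5. The call at Sr01R04C06 was lost without 7 arrays, which were the Landrace arrays of months 1 and 5 and of months 3 and 4, the breed arrays of months 2 to 4, and the Taihu arrays of months 1 and 5 and of months 3 and 4. These 3 calls were lost also without a dye term or with array weights, both rises without background subtraction, and Sr01R04C08 when centred on the first 12 positions. The split of 2 rises and 6 falls was 7 and 9 with normexp and loess and 1 and 7 when centred on the first 12 positions. The count of 8 was 0 without a dye term and 2 with array weights. It was 43 without the Landrace array of months 4 and 5 (10 rises and 33 falls), 13 without the Taihu array of months 4 and 5, 10 without the breed array of month 5, and 1 to 4 without each of the others.

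Against month 1, the number of changed positions was larger at each later month in the main fit. At month 3, 29 positions were higher and 28 lower (57 of 138, 41.3%), at month 4, 31 were higher and 31 lower (62 of 138, 44.9%), and at month 5, 38 were higher and 33 lower (71 of 138, 51.4%). The comparisons share the month 1 RNA and differ in precision. The median SE was 0.18 for months 3 and 4 over 1 and 0.16 for month 5 over 1, so the counts are not a like measure of age. Leaving out 1 array moved the count by over 1.5 times in 4 cases. The month 3 count was 37 without the Landrace array of months 1 and 2 and 33 without that of months 3 and 4. Without the Landrace array of months 1 and 5, the month 4 count was 37 and the month 5 count 36, beside 44 at month 3, so that the counts did not grow with age. Several other settings broke the order too. The counts at months 3, 4 and 5 were 53, 49 and 90 with array weights. They were 62, 58 and 79 without the Landrace array of months 4 and 5.

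The largest rises to month 5 were those of Sr02R04C06 and Sr01R04C06, both already described. On the array of months 1 and 5, Sr02R04C06 read 5188 at month 5 and 724 at month 1, with a fitted rise of 2.43 (5.40-fold, SE 0.23, adjusted p = 6.68e-05). Sr01R04C06 read 2192 at month 5 and 322 at month 1, with a fitted rise of 2.36 (5.14-fold, SE 0.15, adjusted p = 1.33e-05). Both had therefore most of their month 5 level by month 2.

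Among positions past the threshold with no ceiling spot, the largest fitted falls to month 5 followed different courses. Sr01R06C09 read 549 at month 5 and 2857 at month 1, and its loop levels of -0.73, -1.25, -1.98 and -2.61 at months 2 to 5 went down by 0.52 to 0.73 in each step. In the other 10 arrays its steps were -0.66, -0.27, -1.29 and -1.50, so most of the fall came after month 3. No single step of it passed the threshold (adjusted p from 0.0767 to 0.277), and the fitted fall over all 4 was 7.28-fold (log2 -2.86, SE 0.25, adjusted p = 6.68e-05). Sr02R06C04 read 1593 at month 5 and 5671 at month 1, with a fitted fall of 7.27-fold (log2 -2.86, SE 0.52, adjusted p = 0.00183). Its loop level was -2.07 at month 2 and -2.45 at month 5. The 4 calls for month 5 over month 1 held under all 27 other settings, which include leaving out each array.

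**Figure D5:**
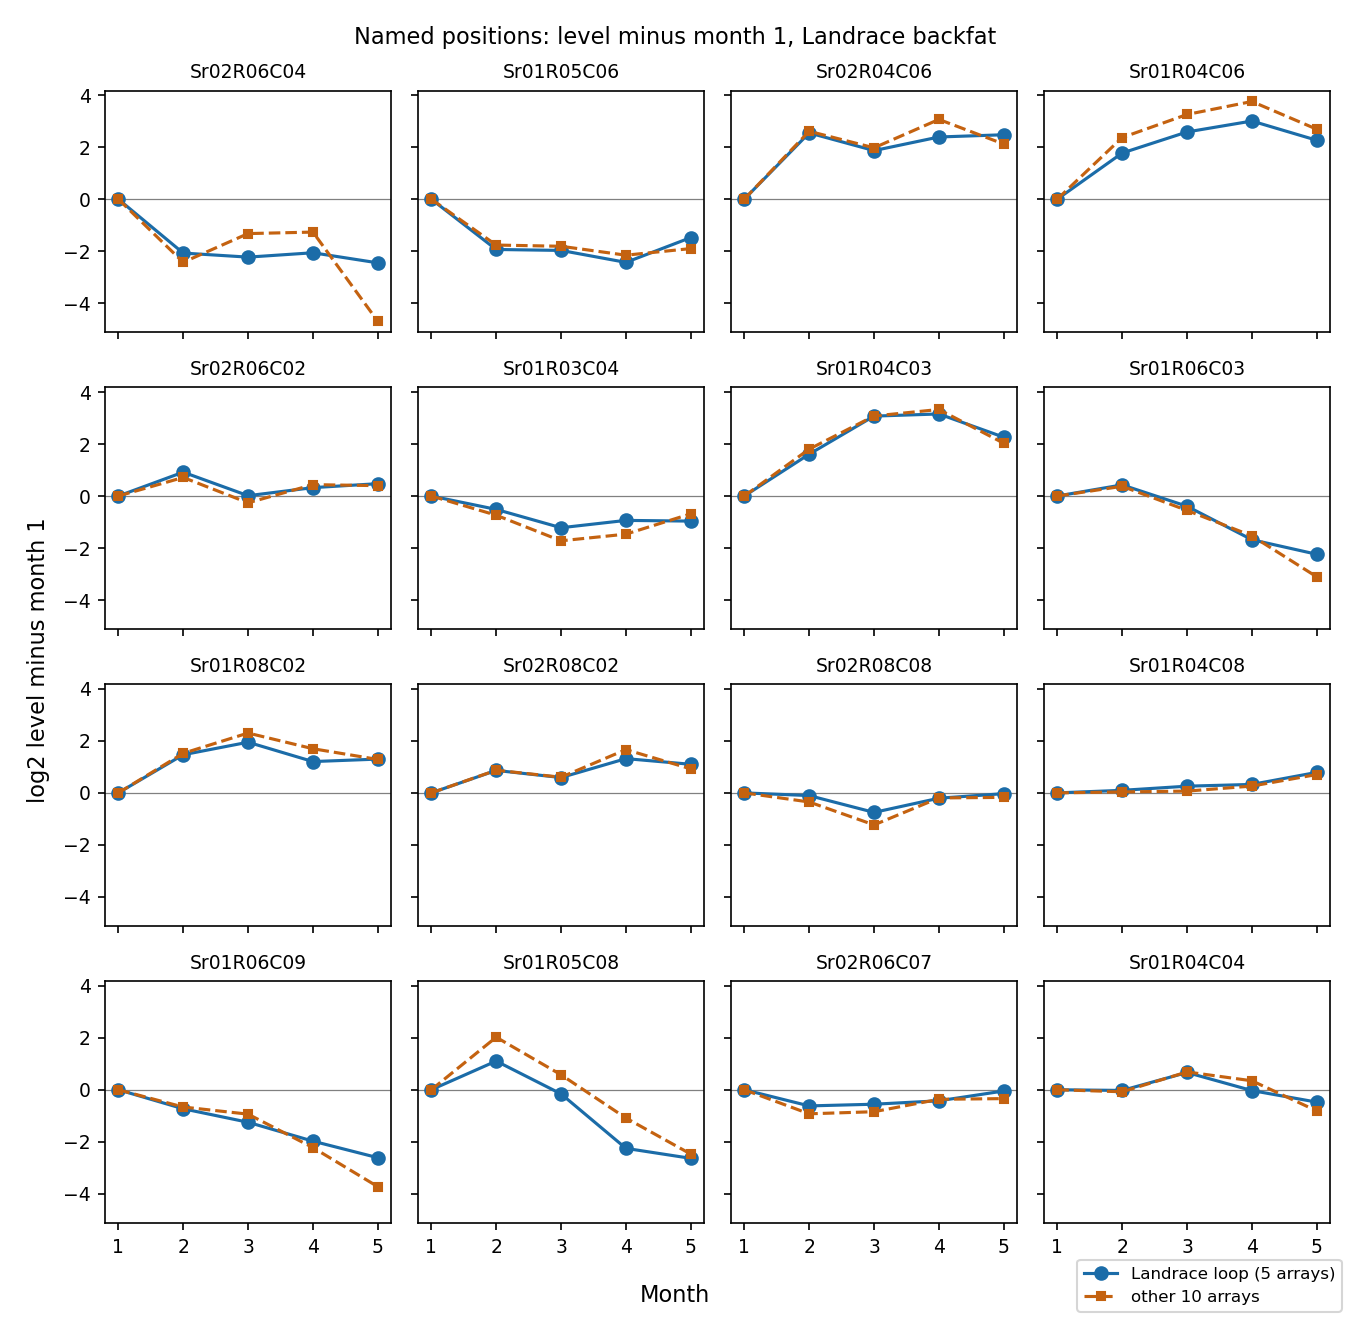
Level relative to month 1 (log2, vertical axis) at months 1 to 5 (horizontal axis) of each named position, from the 5 Landrace loop arrays (circles, solid) and from the other 10 arrays (squares, dashed). Early shifts (Sr02R04C06, Sr01R05C06) and rises that turn after month 4 (Sr01R04C03, Sr01R04C06) appear in both. The fall at Sr01R06C09 is even in the loop and mostly late in the other 10 arrays, and at Sr02R06C04 the lines part after month 2.

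Some positions were highest or lowest in the middle of the series. Among positions that passed the F-test with no ceiling spot, the one standing highest above months 1 and 5 was picked for each middle month, and likewise the lowest, so their sizes describe and do not test. Sr01R05C08 peaked at month 2, 1.10 above month 1, and its loop levels of 1.10, -0.16, -2.25 and -2.64 at months 2 to 5 then ran far below it. In the fit, neither its rise to month 2 (adjusted p = 0.083) nor its fall to month 3 (0.161) passed the threshold. Its signal was 24063 at month 2 and 13778 at month 1 on one array, and 1000 at month 5 and 4708 at month 1 on another. Sr01R04C04 peaked at month 3 by 0.66, with levels of -0.03, 0.66, -0.03 and -0.48. Its fitted rise to month 3 passed the threshold (adjusted p = 0.0310) and its fall to month 4 did not (0.105). Sr01R04C03 peaked at month 4, 0.89 above month 5, though its change from month 3 to 4 did not pass the threshold (adjusted p = 0.873).

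The troughs were at Sr02R06C07 at month 2 (0.57 below month 5, levels of -0.62, -0.56, -0.43 and -0.05 at months 2 to 5), at Sr02R08C08 at month 3 (0.72 below) and at Sr01R05C06 at month 4 (0.95 below). Sr02R06C07 and Sr02R08C08 ended near month 1, and their month 5 over month 1 changes did not pass the threshold (adjusted p = 0.648 and 0.809). The lowest month was not resolved at Sr02R06C07 (month 3 over 2, adjusted p = 0.879) or Sr01R05C06 (month 4 over 3, 0.179). At Sr02R08C08 the fall to month 3 and the rise after it both passed the threshold (adjusted p = 0.0122 and 0.0281).

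Most positions did not move in one direction throughout. Of all 140, 9 rose in all 4 steps and 5 fell in all 4, 35 rose in 3 of 4, 34 fell in 3 of 4, and 57 had 2 steps of each sign. Under other settings of the dye term the count moving one way throughout was much larger, 46 of 138 with the dye term of the other 10 arrays and 47 of 140 with it set to 0, so this count depends on the dye correction. Of the 72 positions that varied, 3 rose in all 4 steps, 5 fell in all 4, 21 rose in 3 of 4 and 22 fell in 3 of 4. The remaining 21 had 2 steps of each sign. Neither split was tested against steps of random sign, which also give mostly mixed directions. The largest single step was the first at 79 of 140 positions, the second at 28, the third at 13 and the last at 20. From the other 10 arrays alone the first was the largest at 48. The range over the 5 months was 0.65 in the median and 3.74 at most, above 1 at 38 positions and above 2 at 18.

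Month 1, a single RNA sample, held more of the highest and more of the lowest levels than any other month. The highest level was at month 1 for 56 positions, at month 2 for 15, month 3 for 20, month 4 for 13 and month 5 for 36. The lowest was at month 1 for 46, month 2 for 23, month 3 for 28, month 4 for 18 and month 5 for 25. When only the 72 that varied were counted, month 1 was highest for 27 and lowest for 30. There month 5 was highest for 11, fewer than months 2 (12) and 3 (13), and lowest for 19. Among the 72 positions that varied, the first step held 47.1% of the summed path in the median, the second 21.4%, the third 13.6% and the last 15.6%. All 140 positions had median shares of 39.7%, 22.7%, 15.2% and 18.1%.

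In the loop the median rise had covered more of its course by month 2 than the median fall. For the 38 positions that rose from month 1 to month 5, the median share of the final change was 74.7% at month 2, 92.2% at month 3 and 94.7% at month 4, and 28, 30 and 33 of the 38 had at least 50% of it. For the 33 that fell the median shares were 53.6%, 59.6% and 84.2%, with 18, 20 and 29 of the 33 at 50% or more. At month 2, 8 of the 33 lay above month 1 and 2 of the 38 below it. The quartiles at month 2 overlap widely, 50.3% to 105% for the rises and 5.58% to 98.3% for the falls, and the difference was not tested. From the other 10 arrays the medians at month 2 were 75.3% and 37.2%.

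The loop also gives the dye term of each position, the part of log2(Cy5/Cy3) that stays the same whichever month is in Cy5. Its root mean square was 0.24 ± 0.003 (SD over 4 copies), from -1.21 to 0.48, with 3 positions over 0.5 in size. The other 10 arrays gave 0.44, with r = 0.81 between the sets. The root mean square disagreement of the sets was 0.28, which is larger than the dye term of the loop itself. With no correction, steps read directly from their own arrays measured 0.71, 0.48, 0.51 and 0.45 in order of age, against 0.68, 0.42, 0.40 and 0.35 with it. The first step was the longest without the correction too.

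The size of change went with brightness. In the 47 brightest positions the root mean square change from month 1 to 5 was 1.48 and 40 varied, in the 46 of middle brightness it was 0.82 and 22 varied, and in the 47 dimmest 0.52 and 10 varied. Ceiling spots were at 11 of the 47 brightest. The 12 ceiling positions ranged from -3.56 to 1.81 at month 5, with 3 called higher and 6 called lower, and their values there may be bounds. The 128 positions with no such spot had steps of 0.66, 0.36, 0.32 and 0.27 and a month 5 distance of 0.87, so the first step was the longest there too. The part of brightness in the other results was not tested.

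The Landrace course was set against the Taihu one by a test of the difference added after the data were seen. The months ran differently in the breeds at 74 of 138 positions (53.6%, limma, 4 differences together). For month 2 over 1 the change differed at 59 (42.8%), higher in Landrace at 27 and lower at 32, and at 35 of the 59 the fitted changes had opposite signs. The root mean square fitted step was 0.69 in Landrace and 0.83 in Taihu. For month 3 over 2 it differed at 60 (43.5%), higher in Landrace at 38 and lower at 22, with a step of 0.44 in Landrace and 1.24 in Taihu.

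At Sr02R04C06 the month 2 rise was 2.58 in Landrace and 0.75 in Taihu. At Sr01R04C06 the order of the 2 steps differed. It rose by 1.91 and then by 0.87 in Landrace, and had fitted changes of 0.46 and then 2.47 in Taihu. These comparisons share the 5 arrays that join the breeds. The count of 74 was 37 without the breed array of month 1, 44 without either array of months 1 and 5 (Landrace or Taihu) and 47 when the month 2 breed array was dropped. The count of 60 was 29 without the breed array of month 2, 36 without that of month 3, 31 without either array of months 2 and 3, and 91 without either array of months 4 and 5.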

How the data were processed

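Total RNA was isolated from backfat with a kit for lipid-rich tissue, amplified linearly and given Cy3 or Cy5, per the labels' protocols. The authors deposited spot intensity and local background on a linear scale, 1 file per channel, without normalization. Per the file headers, image software of version 5.1 used a fixed circle per spot, signal pixels between fractions 0.05 and 0.95, and a background ring 5 pixels wide after a gap of 3. The sources used here do not give the scanner. Per the labels, the month named first is in Cy3. The authors' value table was not used, since its row numbers match no code column and many of its cells are empty.

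Median background was subtracted from mean signal, log2(Cy5/Cy3) was centred on each array's median, and the 4 printed copies were averaged. The first 12 positions of each block, taken for control spots, and marked spots were left out, with no filter on dim positions. Each loop position's dye term was the mean of its 5 log ratios. Limma 3.58.1 (lmFit and eBayes, R 4.3.3) was fitted to all 15 arrays with 10 levels (breed by month) and a dye term, and adjusted over 138 positions. The fit was tested on data simulated from its own model, with a dye term shared by all arrays. That test does not cover ceiling spots or dye terms that differ between sets of arrays. The precision is limited by the number of arrays, and p-values cover the disagreement between arrays, not between animals.

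Positions named have the 2 largest rises and 2 largest falls per comparison among those past the threshold, with no ceiling spot on a loop array and the same sign in the loop and in the other 10 arrays. Peaks and troughs followed the rule given with them. The arrays, rules and lists were chosen with earlier results of these data known. Alternatives were another background correction, normalization, centring, dye term, signal or summary over copies, leaving out ceiling spots or dim positions, keeping marked spots, array weights, and each array left out.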

Additional observations from a re-analysis of the deposited data

Results flagged for a closer look

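The changes between months differed between Landrace and Taihu by a test of the difference itself (limma, adjusted over 138 positions), which was added after the data were seen. The courses differed at 74 positions over all months, at 59 for month 2 over 1 and at 60 for month 3 over 2. Each breed and month has 1 RNA sample, so these tests cover the disagreement between arrays and not the spread between animals.

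For month 2 over 1 the change differed at 13 of the 16 named positions, among them all 4 named for that step. Over all tested positions it differed at 59 of 138 (42.8%). Most named positions were chosen for large Landrace changes in the same fit, so a higher share among them was partly fixed by the choice. The change at Sr02R06C04 was -1.98 in Landrace and 1.501 in Taihu, a difference of -3.48 (SE 0.61, adjusted p = 0.00239). At Sr01R05C06 it was -1.87 in Landrace and -0.24 in Taihu, a difference of -1.63 (SE 0.21, adjusted p = 0.000509). At Sr02R04C06 it was 2.58 in Landrace and 0.75 in Taihu, a difference of 1.84 (SE 0.26, adjusted p = 0.000967). At Sr01R04C06 it was 1.91 in Landrace and 0.46 in Taihu, a difference of 1.45 (SE 0.18, adjusted p = 0.000449).

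For month 3 over 2 the change differed at 11 of the 16, among them 3 of the 4 named for that step. Over all tested positions it differed at 60 of 138 (43.5%), and the same limit of the choice holds. Sr02R06C02 changed by -0.91 in Landrace and 0.38 in Taihu, a difference of -1.30 (SE 0.14, adjusted p = 0.000358). Sr01R04C06 changed by 0.87 in Landrace and 2.47 in Taihu, a difference of -1.61 (SE 0.18, adjusted p = 0.000358). Sr01R04C03 changed by 1.43 in Landrace and 2.63 in Taihu, a difference of -1.20 (SE 0.14, adjusted p = 0.000409).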

How the results depend on the processing

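12 other settings of the fit and the omission of each of the 15 arrays were run. Of 540 values for the named positions, 434 kept their direction and side of the threshold, 106 kept the direction and missed the threshold, and 0 reversed. These positions were chosen with one sign in both sets of arrays, and the settings reuse the same arrays. That 0 reversed was therefore largely fixed by the choice. The cause of each shift below was not tested. Without a dye term the counts were 44 for positions that varied, 8 for month 3 over 2, 0 for month 4 over 3, 0 for month 5 over 4, 32 and 38 for months 3 and 4 over 1, and 37, 39 and 27 for the breed differences (all months, first and second step). Normexp with loess gave 17 and 16 for the last 2 steps, no background subtraction 2 and 5 (and 46 for breed courses), ceiling spots left out 4 and 5, and array weights 26 and 2. Single arrays left out gave 46 to 91 for positions that varied, 17 to 65, 4 to 39, 0 to 21 and 1 to 43 for the 4 steps, 33 to 71, 37 to 73 and 36 to 84 for months 3, 4 and 5 over 1, and 37 to 94, 40 to 71 and 29 to 91 for the breed differences.

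For loop distances, no background subtraction gave 0.62 and 0.39 for the first 2 steps and 0.76, 0.86 and 0.94 for months 3 to 5 over 1. For month 3 over 1, loess gave 0.80 (0.8034) and normexp 0.7994. Leaving out ceiling spots gave 0.96 for month 5 over 1. The dye term of the other 10 arrays gave 0.76 for the first step and 0.99, 1.14 and 1.15 for months 3 to 5 over 1. A dye term of 0 gave steps of 0.71, 0.48, 0.51 and 0.45 and 0.94 and 1.22 for months 3 and 4 over 1. The other 10 arrays gave steps of 0.79, 0.62, 0.56 and 0.96, and 0.92, 1.07 and 1.37 for months 3 to 5 over 1. They put the largest step first at 48 positions.

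Positions moving one way throughout (14) numbered 9 with loess, 46 with the other arrays' dye term, 47 with a dye term of 0 and 6 from the other 10 arrays. The first component held 78.0%, 80.3% and 57.5% under the last 3 of these. The share of the final rise at month 2 was 81.5% centred on the first 12 positions, 79.5% without ceiling spots, 92.9% with the other arrays' dye term and 70.1% with a dye term of 0. That of the fall was 62.7% without ceiling spots, 35.8% with the other arrays' dye term and 37.2% from the other 10 arrays.

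The authors' value table was not run. Each log ratio already pairs the channels of an array. No further pairing was possible because each array is a group of its own and the labels carry no replicate numbers.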
